A study of Mus musculus with 768 samples.

Results

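Solute carriers are membrane proteins that move amino acids, sugars, ions, metals, nucleotides and vitamins across the plasma membrane and the membranes of organelles. Glia depend on them for uptake of building blocks, for control of pH and volume, and for exchange with axons. Myelinating Schwann cells (mSCs) wrap 1 axon each and make large amounts of lipid, while non-myelinating (Remak) Schwann cells (nm(R)SCs) hold several thin axons without myelin.

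The genes described here are those whose mouse symbol begins with Slc and a number and that reached 10 CPM (a gene's reads scaled to a fixed total per library) over all cells, without 6 glucose and monocarboxylate carriers that were set aside by name. Of 372 such symbols in the table, 125 were at or above 10 CPM, 247 were below it and 102 of the latter had no read. The 122 genes kept stand among 8768 genes at that level and 25700 genes in all. They belong to 38 families and held 1.17% of all reads. By symbol, 4 of them are not carriers: Slc9a3r1 and Slc9a3r2 encode scaffold proteins, and Slc7a6os and Slc4a1ap are named after a neighbour or partner. The 122 genes were chosen by their level summed over all cells, and that rule used no comparison between cells. Cells with more reads weigh more in that sum, and a gene read mainly in 1 class of cells can pass. The nm(R)SC-like class of plate 2, described below, held 152721159 of the 283685199 reads. Slc9a3 passed at 15.4 CPM with 0.574 and 0.0262 CPM in the nm(R)SC-like sums. The choice of genes was not blind, since earlier results of these data were known. Comparisons with other genes carry both limits. Just inside the limit were Slc4a3 and Slc25a33, both at 10.5 CPM, and just outside it were Slc6a20b at 9.83, Slc25a26 at 9.63 and Slc25a28 at 9.60 CPM.

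The study followed Schwann cells (SCs) of mouse sciatic nerve by single-cell RNA sequencing, and the data used here are cells from postnatal day 60 (P60) on 2 plates of 384 wells. All mice carried P0Cre, a Cre transgene active in the SC lineage, a Cre-dependent eYFP reporter (ReYFP) and dsRed under the chicken beta actin promoter (βAct-DsRed). Cells with eYFP were sorted singly for the Smart-Seq2 protocol, which copies full-length transcripts and counts reads and not molecules. Each plate came from different animals, with males and females pooled, so a plate is 1 pooled sample and the n is 2.

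Cells with 1500 or more genes were kept and clustered without any Slc gene, and clusters were named from markers. The 2 classes were mSC-like, with 150 cells in plate 1 and 74 in plate 2, and nm(R)SC-like, with 175 and 247 cells. Summed reads ran from 31237216 to 152721159 per plate and class. The median per cell was 158753 and 155989 reads in plate 1 and 664593 and 435183 reads in plate 2. A further 28 cells led by cell-cycle genes stayed unnamed. Their depth relative to their plate was low (median 0.313), and no naming marker was among the 10 leading genes. Their marker score was higher for the nm(R)SC-like class, at 0.219 against -0.438. Their median was 282988 reads in plate 1 and 4081 reads in plate 2. Summed over the 11 naming markers, mSC-like cells had 73935 and 71183 CPM in the 2 plates against 6800 and 7409 CPM in the nm(R)SC-like class. The 9 markers of the other class had 105 and 204 CPM against 3559 and 2695 CPM. The lists for other nerve cells varied in level. Fibroblast markers summed to 1305 and 775 CPM in the mSC-like class and 2485 and 996 CPM in the nm(R)SC-like class, nearly all of it collagen I, with Pdgfra and Cd34 under 1 CPM in every sum. Dcn had 9.64 and 4.51 CPM in the mSC-like class against 52.8 and 27.6 CPM in the other (edgeR adjusted p = 0.352). Lum had 4.42 and 0 against 1.75 and 1.23 CPM. Perineurial markers ranged from 169 to 312 CPM with Msln at 0. Most of that was Itgb4, at 162 and 216 CPM in the mSC-like class and 294 and 287 CPM in the other. Immune markers ranged from 10.3 to 23.2 CPM with Adgre1 at 0. Csf1r had 10.1 and 19.6 CPM in the mSC-like class and 7.75 and 4.96 CPM in the other, and Lyz2 0.154 and 0 against 7.58 and 15.2 CPM. Endothelial markers summed to 72.1 and 40.3 CPM in the mSC-like class and 13.6 and 1.90 CPM in the nm(R)SC-like class. Of these, 3 of 6 genes were under 1 CPM in every sum, with Cdh5 at 0. Egfl7 had 71.7 and 39.8 CPM in the mSC-like class against 6.07 and 1.59 CPM (edgeR adjusted p = 0.0661). Cldn5 had 0.308 and 0.425 CPM in the mSC-like class against 6.07 and 0.277 CPM in the other. Pecam1 had 0.0924 and 0.0354 against 1.49 and 0.0263 CPM. Mural markers summed to 52.4 and 19.1 CPM against 3.82 and 13.4 CPM, with 4 of 6 genes under 1 CPM and Rgs5 at 0. The part of these lists in the results was not tested. Among adipocyte and muscle markers no sum passed 5.90 CPM.

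The 10 carriers that the test between classes called are given first with their place in the genome. Higher in the mSC-like class were Slc36a2 (ENSMUSG00000020264, chr11:55158470-55185077), Slc9a3 (ENSMUSG00000036123, chr13:74121457-74169442), Slc7a2 (ENSMUSG00000031596, chr8:40862396-40922308), Slc5a3 (ENSMUSG00000089774, chr16:92058322-92087473), Slc25a1 (ENSMUSG00000003528, chr16:17925223-17928219) and Slc3a2 (ENSMUSG00000010095, chr19:8706882-8723369). Higher in the nm(R)SC-like class were Slc43a3 (ENSMUSG00000027074, chr2:84936579-84958509), Slc43a1 (ENSMUSG00000027075, chr2:84838850-84863594), Slc10a6 (ENSMUSG00000029321, chr5:103605711-103629403) and Slc35f1 (ENSMUSG00000038602, chr10:52690533-53111622). Coordinates are gene spans in GENCODE M21 on GRCm38. Slc43a1 and Slc43a3 lie on the same strand of chromosome 2 with 72984 bases between them. Exons of Slc5a3 overlap those of Mrps6 on the same strand, so its reads are uncertain. Of the 122 genes, 19 have such an overlap on either strand. Slc20a2, Slc39a13, Slc25a11 and Slc25a46, named below, overlap a gene on the opposite strand, and the strand setting of the counts was not stated.

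RefSeq windows of 250 bases before the annotated start (GRCm38.p6) were found for 7 of the 10 genes, and not for Slc36a2, Slc7a2 and Slc43a3. They were searched on both strands for the letters ACAAAG and ACAATG (cores of SOX sites), GTGGGCG (core of EGR sites) and GGAATG (core of TEAD sites), factors known to act in SCs. Over all 32851 windows, 16.5% held ACAAAG, 10.7% ACAATG, 7.02% GTGGGCG and 12.6% GGAATG. The 4 windows with a match are printed to show where the letters lie, with the match in capitals. Slc25a1 and Slc5a3, both higher in the mSC-like class, held GTGGGCG, at position -39 in Slc25a1 and at -83 and -67 in Slc5a3, counted from the start. Slc43a1 and Slc10a6, both higher in the nm(R)SC-like class, held GGAATG on one of the strands, at -114 in Slc43a1 and at -130 and -100 in Slc10a6. None of the 7 windows held either SOX core. For the 92 of the 122 genes with a window, 23 of 127 windows held GTGGGCG and 17 held GGAATG. Their median GC content was 60.8%, against 52.4% over all windows. These are matches of letters and not sites.
Slc25a1 (chr16:17928220-17928469, minus strand): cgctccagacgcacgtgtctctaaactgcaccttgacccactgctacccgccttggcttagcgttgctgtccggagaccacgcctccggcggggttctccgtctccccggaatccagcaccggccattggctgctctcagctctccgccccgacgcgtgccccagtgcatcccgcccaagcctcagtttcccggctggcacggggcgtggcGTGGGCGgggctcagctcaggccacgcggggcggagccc
Slc5a3 (chr16:92058072-92058321, plus strand): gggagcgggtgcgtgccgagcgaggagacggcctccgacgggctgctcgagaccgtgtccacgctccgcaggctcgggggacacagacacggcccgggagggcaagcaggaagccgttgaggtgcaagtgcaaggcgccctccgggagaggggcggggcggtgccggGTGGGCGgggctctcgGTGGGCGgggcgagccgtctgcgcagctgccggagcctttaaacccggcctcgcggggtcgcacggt
Slc43a1 (chr2:84840073-84840322, plus strand): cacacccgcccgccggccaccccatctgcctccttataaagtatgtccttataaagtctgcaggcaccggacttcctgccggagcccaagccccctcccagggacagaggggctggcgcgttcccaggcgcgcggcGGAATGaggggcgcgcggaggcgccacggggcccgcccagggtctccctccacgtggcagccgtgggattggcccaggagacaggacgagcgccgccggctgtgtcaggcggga
Slc10a6 (chr5:103629404-103629653, minus strand): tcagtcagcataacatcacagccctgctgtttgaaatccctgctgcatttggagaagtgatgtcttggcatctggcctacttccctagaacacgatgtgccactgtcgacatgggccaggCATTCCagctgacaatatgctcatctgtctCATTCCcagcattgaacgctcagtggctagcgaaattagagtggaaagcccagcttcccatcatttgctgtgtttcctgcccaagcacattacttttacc

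Across the 122 genes, 10 (8.20%) passed an adjusted p of 0.05 in edgeR's quasi-likelihood test on reads summed per plate and class. The background is 2.01% of all 13273 genes tested and 2.97% of the other genes at 10 CPM or more. Of the 10 carriers, 6 were higher in mSC-like cells (background 1.12%) and 4 in the nm(R)SC-like class (0.889%). The non-Slc genes of the background were tested in other class sets, each built from a part of the genes. These matched the classes used for the carriers in 96.3% and 96.9% of 646 cells and counted cell-cycle cells as nm(R)SC-like. The effect of this on the shares was not tested. At an unadjusted edgeR p under 0.05 there were 29 carriers. The background is 1634 of all 13273 genes tested and 1340 of the 8627 other genes at 10 CPM or more. DESeq2 called 26 carriers (background 10.3% of all genes and 13.8% of the other genes at 10 CPM or more). All 122 passed the filter on low counts, and the test has 1 residual degree of freedom. The calls depend on how the classes were built. Variable genes for the clustering were first chosen over both plates together, and 2 carriers, Slc43a3 and Slc35f1, were called. Choosing them in each plate and joining the lists was adopted with that count known, because 24 cells of the nm(R)SC-like class had mSC markers above nm(R)SC markers by a score gap over 0.5 under the first choice and 9 under the second. The other 8 calls were not made under the first choice. Their fitted log2 ratios there were 8.63 for Slc9a3, 5.97 for Slc36a2, 3.53 for Slc5a3, 3.49 for Slc7a2, 1.42 for Slc25a1, 1.40 for Slc3a2, -4.28 for Slc10a6 and -9.02 for Slc43a1, with edgeR adjusted p from 0.0998 to 0.295. A minimum of 2500 genes per cell also left the calls at Slc43a3 and Slc35f1.

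**Figure D1:**
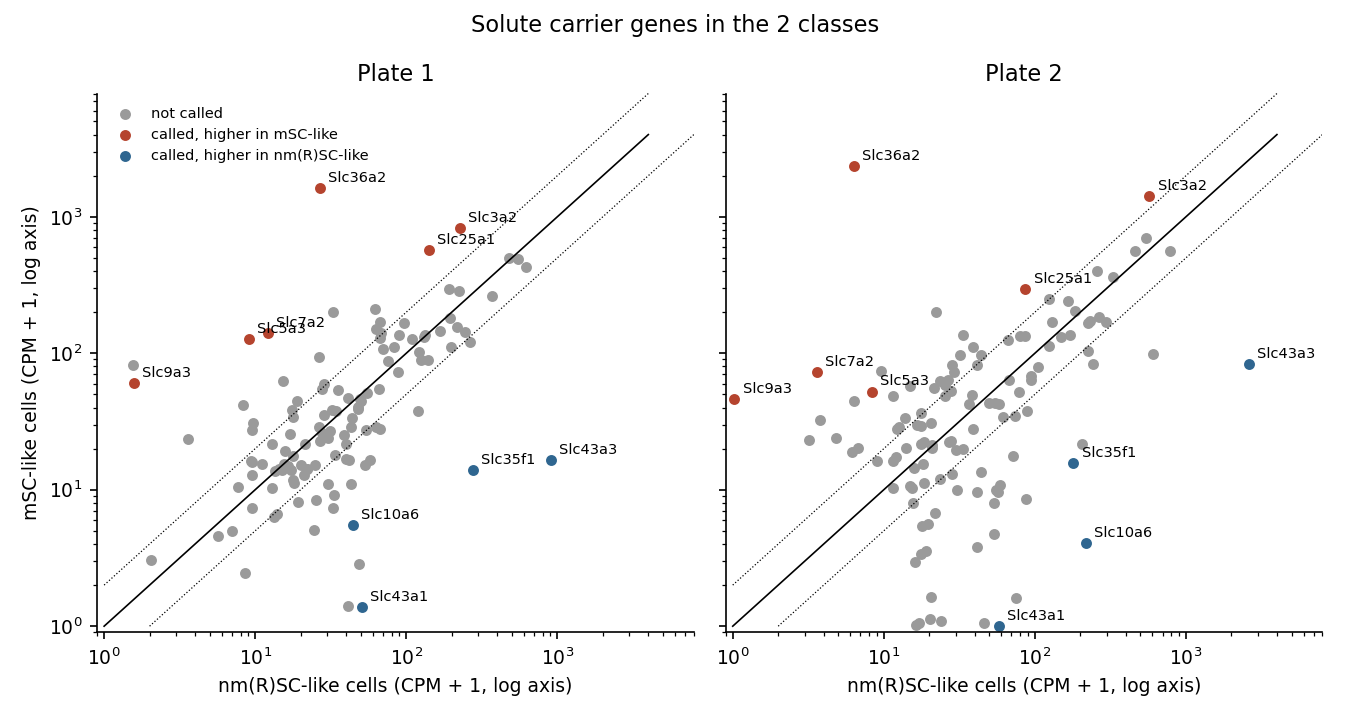
Level of each of the 122 solute carrier genes in nm(R)SC-like (x axis) and mSC-like cells (y axis) of plate 1 and plate 2, in CPM + 1 on log axes, with lines of equal level and of 2-fold difference. The 10 called genes are coloured and named; Slc36a2 at 1629.85 against 25.7 CPM in plate 1 and Slc43a3 at 15.4 against 907 CPM lie farthest from the line among abundant genes.

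In the group for amino acids, peptides and transmitters, 3 of 19 genes were called higher in the mSC-like class and 2 in the nm(R)SC-like class. The group was set by family number, and not all of its called genes carry amino acids, as given below for Slc3a2 and Slc43a3. Slc36a2, a proton-coupled carrier of small amino acids such as glycine and proline, stood at 1629.85 CPM in the mSC-like class and 25.7 CPM in the nm(R)SC-like class of plate 1. In plate 2 it stood at 2346 and 5.31 CPM. Both mSC-like sums lay above both others, by 63.4-fold and 442-fold within the plates. For called genes, here and below, such separation largely follows from the call and adds no support to it. The fitted log2 ratio was 7.56 ± 0.76 (SE; edgeR adjusted p = 0.00624). One cell held 41.8% of the reads of the nm(R)SC-like sum in plate 1 and another held 85.8% in plate 2.

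Slc7a2 carries cationic amino acids such as arginine. Its level was 139 CPM in the mSC-like class and 11.1 CPM in the nm(R)SC-like class of plate 1, and 72.0 and 2.5995 CPM in plate 2. The classes did not overlap, and the log2 ratio was 4.39 ± 0.66 (SE; edgeR adjusted p = 0.0159). Slc3a2, the heavy chain (CD98hc) that carries Slc7 light chains to the membrane, had 826 and 225 CPM in plate 1 and 1423 and 572 CPM in plate 2. It had the smallest log2 ratio of the 6 genes higher in the mSC-like class, 1.77 ± 0.36 (SE; edgeR adjusted p = 0.043).

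Slc43a3, a carrier of purine nucleobases in a family of amino acid carriers, stood at 907 CPM for the nm(R)SC-like class and 15.4 CPM in the mSC-like class of plate 1. In plate 2 the values were 2601 and 82.6 CPM. Its log2 ratio was -5.26 ± 0.44 (SE; edgeR adjusted p = 0.00335), and over all cells it had the highest level per exon length of all 122 genes. In the mSC-like class of plate 2, 1 cell held 53.4% of the Slc43a3 reads. Slc43a1, a carrier of large neutral amino acids, had 49.7 and 0.384 CPM in plate 1 and 56.6 CPM against no read in plate 2. With 3 reads set for that sum, the plate 2 ratio would be 1047-fold. That figure counts reads and not the 74 cells behind the sum, so it is not a lower bound on the class difference. The fitted log2 ratio of Slc43a1 was -8.98 ± 1.80 (SE; edgeR adjusted p = 0.0409). The third member of that family, Slc43a2, had 31.4 and 37.9 CPM for the nm(R)SC-like class and 37.5 and 26.7 CPM in the mSC-like class (edgeR adjusted p = 0.999), so the classes overlapped.

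**Figure D2:**
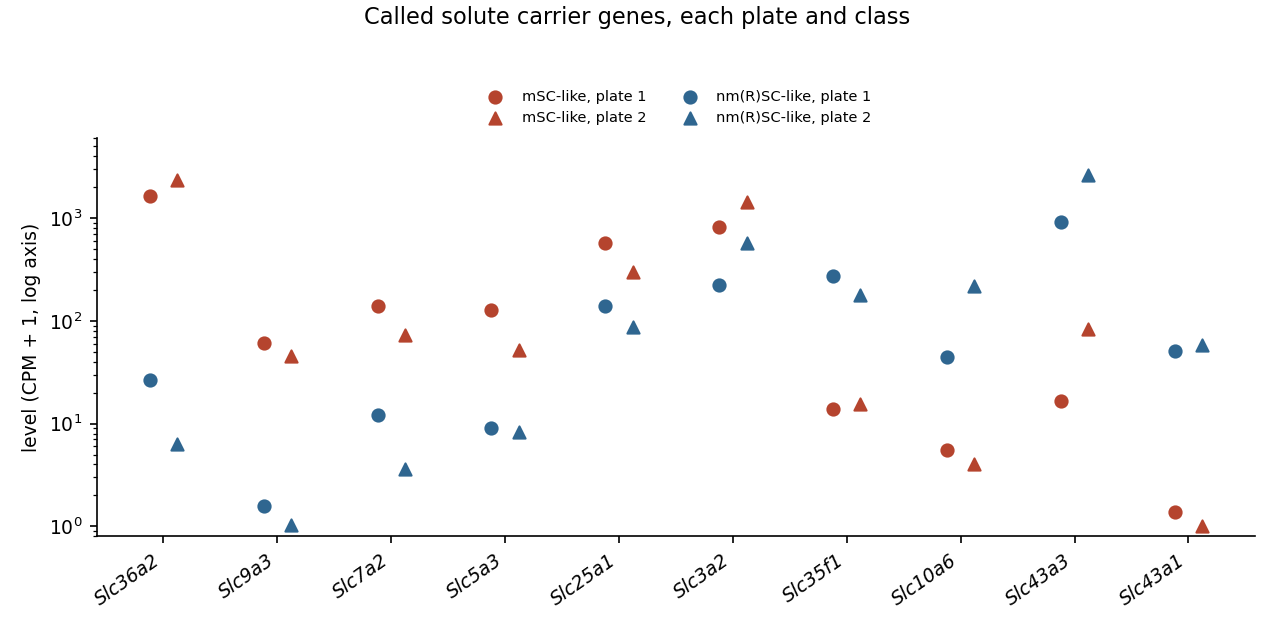
Levels (CPM + 1, log axis) of the 10 called genes in each plate and class; circles are plate 1 and triangles plate 2, red is mSC-like and blue nm(R)SC-like. For each gene both values of one class lie above both of the other, which largely follows from showing called genes only. For Slc3a2 the nearest are 826 CPM in the mSC-like class of plate 1 and 572 CPM in the nm(R)SC-like class of plate 2.

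Of 5 sugar and polyol carriers, Slc5a3, which takes up myo-inositol with sodium, was called. It had 126 and 51.4 CPM in the mSC-like class and 8.04 and 7.31 CPM in the nm(R)SC-like class, with a log2 ratio of 3.56 ± 0.69 (SE; edgeR adjusted p = 0.036). Both mSC-like sums were higher. Slc2a8, the glucose carrier GLUT8, had the opposite order without a call, at 31.6 and 52.8 CPM for the nm(R)SC-like class and 6.37 and 6.996 CPM in the mSC-like class (edgeR adjusted p = 0.318). Slc50a1, a sugar carrier that was 8th in level per length, differed by log2 ratios of only -0.20 and -0.43 in the plates, and Slc37a4, which brings glucose 6-phosphate into the endoplasmic reticulum, by -0.61 and -1.23. Slc37a3 went opposite ways, at -1.09 and 0.72.

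Among 15 carriers of inorganic ions, Slc9a3, the sodium-proton exchanger NHE3, was called. It had 59.5 and 44.9 CPM in the mSC-like class and 0.574 and 0.0262 CPM in the nm(R)SC-like class, with a log2 ratio of 8.69 ± 1.48 (SE; edgeR adjusted p = 0.0237). It was read in 39 of 150 mSC-like cells in plate 1 and in 12 of 74 in plate 2, where 1 cell held 71.9% of the reads. Slc20a2, a phosphate carrier, had 201 and 96.1 against 31.8 and 31.04 CPM without passing the limit (edgeR adjusted p = 0.0551), and its exons overlap Smim19 on the other strand. Slc24a2, a potassium-dependent sodium-calcium exchanger, had 40.4 and 15.4 CPM in the nm(R)SC-like class against 0.416 and 0.018 CPM in the mSC-like class (edgeR adjusted p = 0.0786). Slc4a7, a sodium bicarbonate carrier, had log2 ratios of -1.07 and -2.41.

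None of the 18 metal carriers was called in edgeR (3 at an unadjusted p under 0.05), and DESeq2 called 4. The 2 copper carriers Slc31a1 and Slc31a2 were lower in the mSC-like class in both plates. Slc31a2 had 120 and 96.98 CPM in the mSC-like class and 264 and 602 CPM in the nm(R)SC-like class (edgeR adjusted p = 0.109). Slc31a1 had 14.1 and 0.613 against 23.8 and 74.2 CPM (edgeR adjusted p = 0.5). The zinc carrier Slc39a1, 3rd in level per length, had the same log2 ratio of -0.50 in both plates. Slc39a13 (zinc) and Slc41a1 (magnesium) had mean log2 ratios of 1.69 ± 0.23 and 1.14 ± 1.34 (SD, n = 2), and Slc39a14 (zinc and iron) had -2.87 ± 1.82.

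Slc10a6, a carrier of sulfated steroids, was the called gene among 8 carriers of organic anions and cations. It had 43.4 and 217 CPM for the nm(R)SC-like class and 4.48 and 3.05 CPM in the mSC-like class, with a log2 ratio of -4.55 ± 0.84 (SE; edgeR adjusted p = 0.0318). The classes did not overlap, and the nm(R)SC-like level of plate 2 was the highest. In the mSC-like class of plate 2, 1 cell held 74.6% of its reads. Slc17a5 (sialin, which exports sialic acid from lysosomes) had log2 ratios of -1.81 and -0.62, Slc22a17 (a lipocalin receptor) 0.23 and -0.39, and Slc22a23 -1.25 and 1.19. The last 2 changed sign between plates.

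None of the 8 carriers of lipids, choline and vitamins was called by edgeR or DESeq2, and none was at an unadjusted p under 0.05 in edgeR. The fatty acid carriers Slc27a1 and Slc27a4 had mean log2 ratios of 0.28 ± 0.38 and 0.35 ± 1.86 (SD, n = 2). The folate carriers Slc46a1 and Slc19a1 had -1.29 ± 1.81 and -1.37 ± 1.51. The spread between plates was larger than the mean for each of these 4 genes.

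Slc35f1, a member of the nucleotide sugar family with no settled substrate, was the called gene among 19 carriers of nucleosides, nucleotide sugars and acetyl-CoA. It had 274 and 179 CPM for the nm(R)SC-like class and 12.97 and 14.6 CPM in the mSC-like class. That is 21.1-fold and 12.2-fold within the plates, with a log2 ratio of -3.84 ± 0.49 (SE; edgeR adjusted p = 0.0105). In plate 2, 1 cell held 68.0% of the mSC-like reads. Slc29a1, the nucleoside carrier ENT1, had 23.4 and 45.2 CPM for the nm(R)SC-like class and 4.10 and 0.0541 CPM in the mSC-like class without an edgeR call (adjusted p = 0.34). Slc35b1, which exchanges ATP and ADP at the endoplasmic reticulum, and Slc35b3, a Golgi carrier of the sulfate donor PAPS, had mean log2 ratios of 1.16 ± 0.52 and 1.29 ± 0.10 (SD, n = 2).

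Slc25a1, the mitochondrial citrate carrier, which supplies citrate for fatty acid and sterol synthesis, was called among 26 mitochondrial carriers. It had 567 and 295 CPM in the mSC-like class and 140 and 85.6 CPM in the nm(R)SC-like class. Both mSC-like sums were higher, with a log2 ratio of 2.07 ± 0.37 (SE; edgeR adjusted p = 0.0312). The adenine nucleotide carriers Slc25a4 and Slc25a5, 4th and 2nd in level per length, had mean log2 ratios of -0.10 ± 0.63 and 0.07 ± 0.33 (SD, n = 2). Slc25a14 had 1.99 ± 1.03 and Slc25a33, a pyrimidine nucleotide carrier, 1.91 ± 1.67. Slc25a11, the oxoglutarate carrier, and Slc25a46, of the outer membrane, had -0.97 ± 0.20 and -1.33 ± 0.99.

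**Figure D3:**
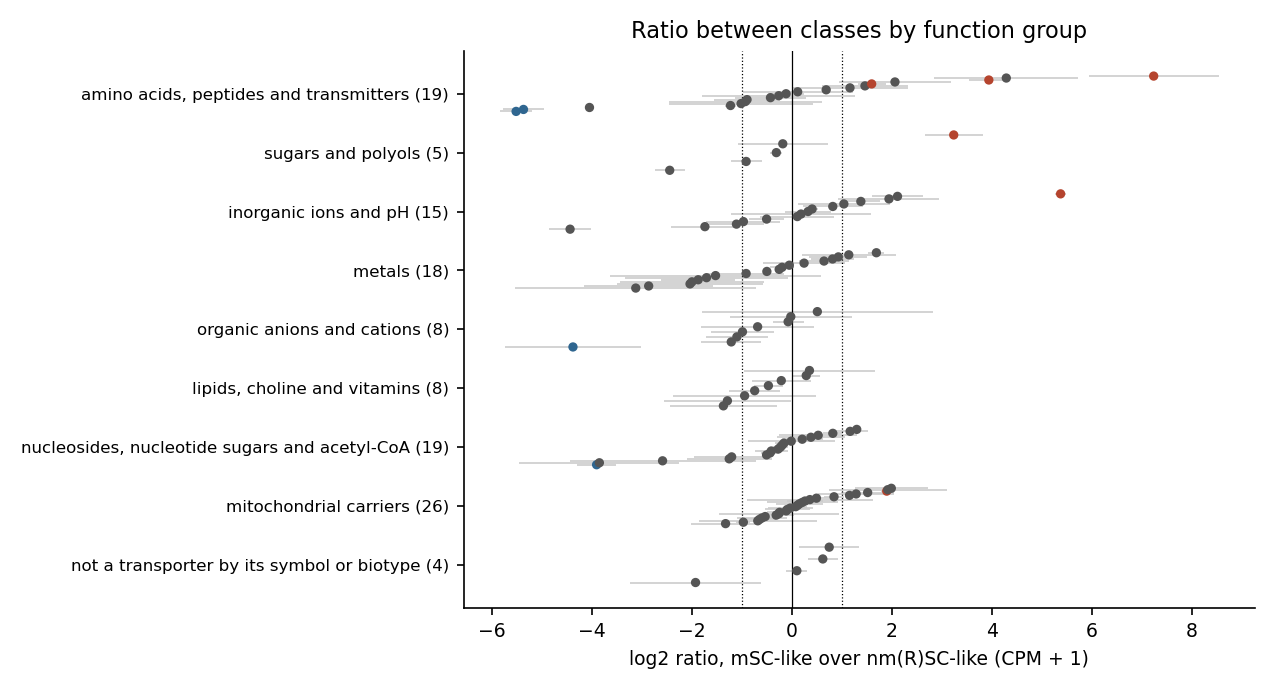
Log2 ratio of mSC-like over nm(R)SC-like levels (CPM + 1) for each of the 122 genes, by function group with the number of genes. Points are means of 2 plates, grey lines join the plates, coloured points are the 10 called genes, and dotted lines mark 2-fold. Median ratios run from -0.84 in organic anion and cation carriers to 0.36 in the 4 genes that are not carriers.

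By a rule of size without a test, 2-fold or more in the same direction in each plate, 24 genes (19.7%) differed, 12 each way, against 18.3% of the other genes at 10 CPM or more (6.26% higher in the mSC-like class and 12.1% higher in the nm(R)SC-like class). All 10 called genes are among them. The median log2 ratio was -0.17 over the 122 genes and -0.23 over the other genes at that level. In plate 1, 45 genes were past 2-fold either way, and in plate 2, 66 genes. With 4 genes the plates went past 2-fold in opposite directions. For these counts of single plates and of opposite directions the share among other genes was not taken. The groups with a median above 0 were inorganic ions at 0.32, mitochondrial carriers at 0.09 and the 4 genes that are not carriers at 0.36.

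The summed level of the 122 genes was close in the 2 classes. It was 10756 CPM in the mSC-like class and 9188 CPM in the nm(R)SC-like class of plate 1, and 12387 and 12427 CPM in plate 2. The mean log2 ratio was 0.11 ± 0.16 (SD, n = 2), and its sign differed between the plates. Without Slc43a3, Slc36a2 and Slc3a2 the ratio was -0.04 ± 0.11.

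Per exon length, the highest levels over all cells were those of Slc43a3 at 348, Slc25a5 at 303, Slc39a1 at 261, Slc25a4 at 241, Slc3a2 at 203, Slc36a2 at 198, Slc31a2 at 194 and Slc50a1 at 138 CPM per kb of exon. Slc25a1 and Slc25a11 followed at 85.8 and 85.6 CPM per kb. The median gene was at 6.48 CPM per kb. Of these 10 genes, 4 were called between the classes, against 2.97% of the other genes at 10 CPM or more. The share among other genes of such high level was not taken, so the count is not a trait of abundant carriers.

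No gene reached 4-fold the same way in both classes between plate 2 and plate 1, where 0.684% of the other genes at 10 CPM or more did (0.464% lower in plate 2). In mSC-like cells 13 genes and in the nm(R)SC-like class 10 genes differed by 4-fold or more between plates. The share among other genes was not taken for either count, so neither is a trait of carriers. The make-up of the mSC-like class also differed, since the cluster led by Mfap5 and Ogn held 91 of its 150 cells in plate 1 and 19 of its 74 cells in plate 2. The part of this make-up in the plate differences was not tested. No test can be made, since each plate is 1 sample.

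The share of cells that carried a gene was read after thinning each cell to 100000 reads, which left 100 and 73 mSC-like and 111 and 239 nm(R)SC-like cells. Slc36a2 had 5 or more reads in 88% of mSC-like cells in plate 1 (exact 95% interval 80.0 to 93.6) and 76.7% in plate 2 (65.4 to 85.8). In the nm(R)SC-like class it did so in 1.80% and 0.837%, while 1 or more reads were present in 55.9% of its cells in plate 1 and 5.02% in plate 2. Slc43a3 was the counterpart, in 74.8% (65.6 to 82.5) and 78.7% (72.9 to 83.7) of the nm(R)SC-like and 5% and 5.48% of mSC-like cells. Slc3a2 was in 94% and 86.3% of mSC-like and still in 60.4% and 41.4% of the nm(R)SC-like class. Slc35f1 was in 66.7% and 41.4% of the nm(R)SC-like against 7% and 5.48% of mSC-like cells.

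In the class where they were higher, the remaining 6 called genes had lower shares than these 4 in each plate. Slc9a3 was in 25% and 9.59% of mSC-like cells while 0 of 111 and 0 of 239 cells of the other class reached 5 reads, a limit of 2.70% and 1.26% at 3 cells of the total and of 3.27% and 1.53% by the exact 95% interval. Slc43a1 was in 9.91% and 7.53% of the nm(R)SC-like class, while 0 of 100 and 0 of 73 mSC-like cells reached 5 reads, a limit of 3% and 4.11% at 3 cells of the total and of 3.62% and 4.93% by the exact 95% interval. Slc10a6 was in 9.91% and 19.2% of nm(R)SC-like cells, Slc7a2 in 40% and 13.7%, Slc5a3 in 38% and 21.9% and Slc25a1 in 66% and 35.6% of mSC-like cells. Cells of a plate are not replicates, and the intervals cover counting error only.

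**Figure D4:**
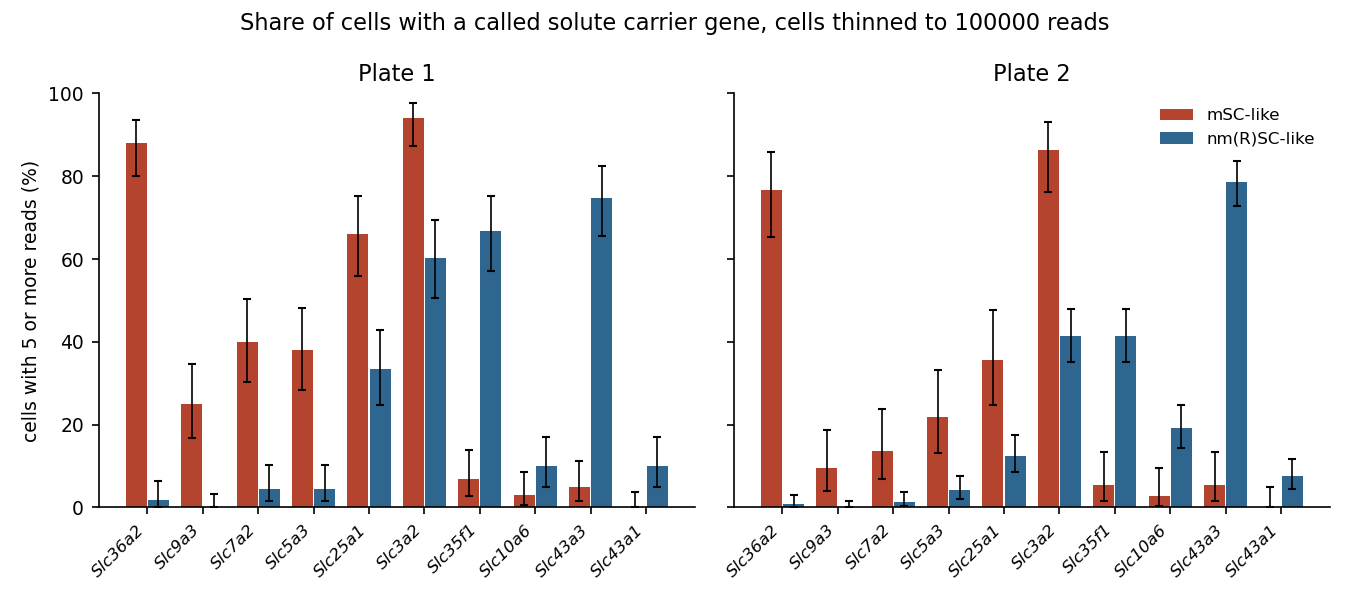
Percent of cells with 5 or more reads of each called gene after thinning to 100000 reads per cell, by plate; red bars are mSC-like and blue nm(R)SC-like cells, and lines are exact 95% binomial intervals. Slc36a2 and Slc43a3 are each in over 74% of the cells of one class and under 6% of the other.

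Levels within a class were also read per cluster, since clusters were built without these genes. Slc3a2 was close in the 2 mSC-like clusters, at 816 and 831 CPM in plate 1 and 1399.5 and 1489 CPM in plate 2. Slc36a2 stood at 972 and 1767 CPM in the mSC-like cluster led by Emid1 and Ncmap and at 1971 and 3935 CPM in the one led by Mfap5 and Ogn. Slc9a3 had the reverse order, at 125 and 59.03 against 25.7 and 6.14 CPM. Slc43a3 had 1295 and 2849 CPM in the largest nm(R)SC-like cluster (led by Apoe and Scn7a), 1087 and 2928 CPM in the one led by Apoe and Aldh1a1, and 454 and 894 CPM in the one led by Ednrb and Tagln2. Slc10a6 was at 82.8 and 221, 35.9 and 300.2 and 2.76 and 12.02 CPM in the same 3 clusters. These are descriptions over 2 plates with no test.

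**Figure D5:**
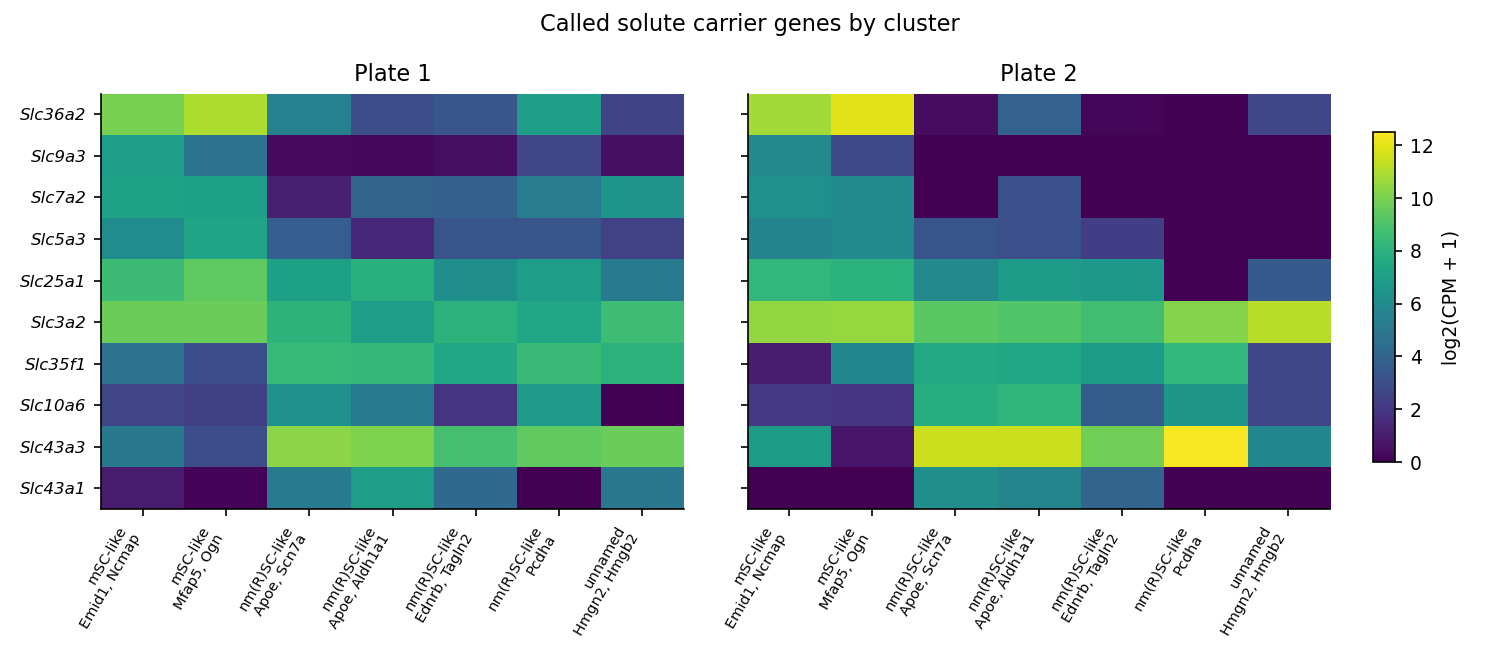
Level of the 10 called genes, as log2(CPM + 1), in each cluster and plate; columns name the class and 2 leading genes of the cluster. Slc36a2 is highest in the Mfap5, Ogn cluster in both plates; the Pcdha cluster holds 3 cells in plate 2.

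Ion pumps and regulators that work beside the carriers were counted from a list of 22 genes, of which 20 were tested. Of these, 2 were called higher in the mSC-like class and 2 in the nm(R)SC-like class, where 2.01% of all genes tested were called either way. The list was chosen with earlier results of these data known. The sodium pump subunit Atp1b3 had 1278 and 1332 CPM in the mSC-like class against 167 and 177 CPM in the nm(R)SC-like class (edgeR adjusted p = 0.0168), and the pump regulator Fxyd6 had 1271 and 2185 against 37.9 and 20.7 CPM (0.0105). Atp1b2 had 191 and 338 CPM in the nm(R)SC-like class against 12.9 and 20.04 CPM in the mSC-like class (edgeR adjusted p = 0.0134), and Fxyd1 had 1809 and 2822 against 247 and 226 CPM (0.0169). The chaperone Bsg had 510 and 450 against 856 and 686 CPM (edgeR adjusted p = 0.684).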

How the data were processed

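The authors deposited 1 table of raw counts, with genes as lines and cells as columns, made per the labels with STAR 2.6.1c and featureCounts on GRCm38.p5; the study's methods name a human build. Strand setting and multi-mapped reads were not stated. All columns matched a cell; plates are the replicates. Symbols and exon lengths came from GENCODE M21 (25664 of 25700 identifiers). Members, gene lists and function groups were chosen with earlier results of these data known.

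Cells with 1500 genes were integrated by canonical correlation (12 dimensions, resolution 0.5, Seurat 5.3.0, R 4.3.3) and clusters named from 20 markers, which were not tested. The methods do not say whether variable genes were chosen per plate. They were first chosen over both plates together; choosing them per plate and joining the lists replaced this after the calls under the first choice (2 carriers, 52 genes) had been seen, because fewer cells then had markers of the other class. Both are reported.

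Slc genes were left out of the clustering. All other genes were split into 2 parts, each tested in classes built from the other; these matched the main classes in 96.3% and 96.9% of 646 cells. The cell-cycle cluster was named nm(R)SC-like there. Counts were summed per plate and class (4 sums) and tested with edgeR 4.0.16 (TMM, filterByExpr, plate as a block, Benjamini-Hochberg over all genes), checked on simulated data. The SE given with a fitted log2 ratio is the absolute ratio divided by the square root of the F statistic of the edgeR test. It therefore restates the test and is not a separate estimate. DESeq2 1.42.0 was an alternative. The block pairs classes sorted from the same mice. Ratios within plates used a pseudocount of 1 CPM. Named genes: all called; the 10 highest per exon length; per function group the 2 highest and 2 lowest mean ratios among genes at 10 CPM in each plate; genes next to the limit (a few genes that this rule names are not reported here); Slc35e1 and Slc43a2 were named after their values were seen. Total reads were 74280540 in plate 1 and 209404659 in plate 2.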

Additional observations from a re-analysis of the deposited data

How the results depend on the processing

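The count of called carriers was 10. It was 2 with a minimum of 2500 genes per cell, 2 with variable genes chosen over both plates together (run first, before the choice used in the report) and 26 with DESeq2. It was 7 with no replicate block, 8 at resolution 0.3 or 0.8, 9 with Slc genes kept in the clustering, 11 without integration or with DESeq2 size factors, 12 with a minimum of 1000 genes, 13 without the filter and 14 with thinned cells. All genes called numbered 52 with the first choice of variable genes and 182 with 2500 genes, against 267. Slc43a3 and Slc35f1 were called under all 12 alternatives. Slc36a2, Slc9a3, Slc7a2, Slc5a3 and Slc10a6 lost the call under 2 of them, Slc25a1 under 3, Slc3a2 under 5 and Slc43a1 under 6. No log2 ratio of these 10 genes changed sign; the cause of the lost calls was not tested. With no replicate block the 3 lost calls were Slc25a1, Slc3a2 and Slc43a1.

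By the rule of size 24 genes differed in both plates, and 45 to 66 when 1 plate was left out, which drops the demand that plates match. The mean log2 ratio of the summed level ran from -0.0047 to 0.23 without 1 plate. Between plates no gene passed; with a minimum of 2500 genes 1 did, Slc35e1. Shares with 1 or more reads moved to 45.1% for Slc5a3, 84.2% for Slc43a3 and 12.1% for Slc43a1. Depth limits genes near 10 CPM, and with 2 plates no plate could be left out of the edgeR test, which would have no residual degrees of freedom.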
